A study of Mus musculus with 47 samples.

Results

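Bacterial lipopolysaccharide (LPS) and related microbial molecules reach the liver with portal blood, where they are met by a set of pattern recognition receptors. LBP, a plasma protein made by hepatocytes, carries LPS to CD14, which hands it to the receptor complex of TLR4 and MD-2 (the product of Ly96). TLR2 and TLR5 recognise bacterial lipoproteins and flagellin, NOD1 recognises peptidoglycan fragments inside the cell, MYD88 is the adaptor that most Toll-like receptors share, and IκBα (Nfkbia) and A20 (Tnfaip3) are inhibitors of NF-κB that NF-κB itself induces. Kupffer cells, the resident macrophages of the liver, are rich in CD14 and Toll-like receptors. The 10 genes described here are Lbp, Cd14, Ly96, Tlr4, Tlr2, Tlr5, Nod1, Myd88, Nfkbia and Tnfaip3. They were chosen by name, from the gene name that the array files give each probe. They have 15 probes among 56605 gene probes on the array, and 14 of the 15 passed the filter on dim probes, out of 32979 tested probes of 21877 genes.

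Liver mRNA was measured on 47 one-color arrays, 1 per mouse, at Zeitgeber time 6. The 8 groups were male or female, Pxr+/+ or Pxr-/- littermates on the C57BL/6J background, bred from Pxr+/- parents and 6 months old at treatment. They drank tap water (control) or, for 2 weeks, water with 1 g/L ampicillin, 1 g/L neomycin and 0.5 g/L vancomycin (ATB, antibiotics that deplete the gut microbiota). PXR, the pregnane X receptor, is a nuclear receptor that controls xenobiotic metabolism, and it is absent from the whole body of Pxr-/- mice. There were 5 male Pxr-/- controls and 6 mice in every other group. The mice of each group came from 2 cages, and the cage of each mouse is not used here, so the p-values treat cage mates as independent. The comparisons ask whether microbiota depletion, PXR deletion and sex moved the hepatic expression of genes that sense bacteria.

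The 75th percentile of the median spot signal ranged from 306 to 492.5 among arrays over a local background of 15 to 21, and 31087 to 34477 gene probes per array were well above background. The probe for Nr1i2, which encodes PXR, gave group medians of 11.51 to 11.97 on the log2 scale in Pxr+/+ mice and 11.09 to 11.64 in Pxr-/- mice. Where it lies relative to the deleted part is not given in the sources used here, so it does not check the genotype labels. The probe for Cyp2c55, a cytochrome P450 gene taken for this check with earlier results known, ranged from 6.28 to 8.55 in Pxr+/+ mice and from 9.18 to 10.82 in Pxr-/- mice, without overlap. The mean level of the 8 tested hepatocyte markers lay between 16.48 and 17.00 in every mouse. All 15 macrophage markers (Clec4f, Vsig4, Cd5l, Adgre1 and others) were well above background on all 47 arrays, so the livers held RNA of both cell types. Fewer cells of a type and less RNA per cell cannot be told apart in whole liver.

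The probes decide what each value means. All 14 tested probes were well above background on all 47 arrays. For Lbp, Nfkbia and Tlr5, the 60-base probes are shown because they measure the gene called in all comparisons of the sexes, the inhibitor that NF-κB induces and the gene called in the opposite direction. They are given 5′ to 3′ as the array design holds them, in lower case throughout, and the coordinates of the first 2 span a gap on the mm9 build of the array files (Lbp at chr2:158154142-158157684 on the plus strand, Nfkbia at chr12:56590945-56591440 on the minus strand, and Tlr5 at chr1:184905770-184905829 on the plus strand).
Lbp: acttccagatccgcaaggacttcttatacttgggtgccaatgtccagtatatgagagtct
Nfkbia: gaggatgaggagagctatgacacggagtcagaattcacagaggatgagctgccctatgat
Tlr5: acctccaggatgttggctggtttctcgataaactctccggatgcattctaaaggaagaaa

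Cd14, Tlr5, Tlr4 and Ly96 have 2 tested probes each. Agreement is given as Pearson's r over the mice after each group's mean was subtracted, as a description. The probes of Cd14 moved together (r = 0.97), and so did those of Tlr5 (r = 0.88). Those of Tlr4 agreed less (r = 0.35). Probe A_51_P300806 lies in the Tlr4 reference transcript (NM_021297, chr4:66503724-66503782 on mm9, plus strand), whereas the brighter A_55_P2714823 lies 87417 bases downstream, on an Ensembl transcript that the files also name Tlr4. The third Tlr4 probe was well above background on 1 array and was not tested. The probes of Ly96 did not move together (r = 0.15). The brighter one, A_55_P2506380, contains a run of 15 AC dinucleotides, and the genes whose levels were most like it were Oprm1, Nalcn and Tacr2 (r = 0.98 each over 47 mice), whose own probes contain runs of 13, 14 and 11 AC dinucleotides. Such runs of 8 or more are found in 39 of the 32979 tested probes (0.118%). Values of Tlr4 and Ly96 below therefore name the probe, and those for NM_021297 (Tlr4) and A_66_P137323 (Ly96, no run of AC) are given first.

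**Figure D1:**
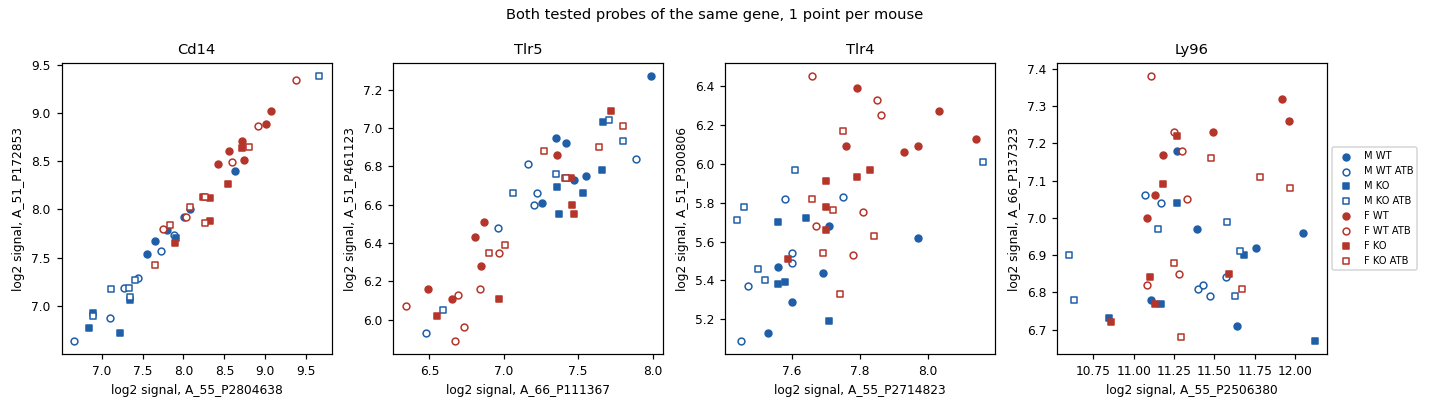
Normalized log2 signal of the brighter probe (x axis) against that of the other tested probe (y axis) for Cd14, Tlr5, Tlr4 and Ly96, 1 point per mouse (blue male, red female, circles Pxr+/+, squares Pxr-/-, open symbols ATB). The points of Cd14 and Tlr5 follow a line (r = 0.97 and 0.88 within groups), and those of Ly96 do not (r = 0.15).

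Lbp had higher signal in females than in males in all 4 matched comparisons, by 1.73- to 2.13-fold. In control Pxr+/+ mice its log2 signal had a lowest, median and highest value of 11.53, 11.91 and 12.43 in females and of 10.61, 10.88 and 11.16 in males. Every female lay above every male. The difference was 1.09 ± 0.18 (log2, SE, limma adjusted p = 1.16e-05, 6 mice per group). Of the 10 genes, 5 were called higher in females in this comparison, where 34% of all genes were called higher, and Lbp alone had groups that did not overlap on its brightest probe (16.8% of all genes). In ATB Pxr+/+ mice, the female values of Lbp were 11.65, 11.96 and 12.02 and the male values 10.73, 10.92 and 11.31. The groups again did not overlap, and the difference was 0.96 ± 0.18 (adjusted p = 0.000133). In this comparison 3 of the 10 genes were called higher in females (10.1% of all genes), and 6.61% of all genes had groups without overlap.

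In control Pxr-/- mice, where no brightest probe of the 10 had groups without overlap (7.26% of all genes did), Lbp had values of 11.28, 11.79 and 12.72 in females and of 10.52, 10.69, 10.90, 11.20 and 11.45 in the 5 males. The lowest female lay below the highest male. The difference was 0.90 ± 0.19 (adjusted p = 0.000667), and 2 of the 10 genes were called higher (15.7% of all genes). In ATB Pxr-/- mice, the values were 11.52, 11.85 and 12.29 in females and 10.69, 11.03 and 11.52 in males, and the lowest female lay just above the highest male. The difference was 0.79 ± 0.18 (adjusted p = 0.00109). Lbp was the 1 gene of the 10 called in this comparison (27.4% of all genes were called higher), and 10.2% of all genes had groups without overlap. With the processed signal scaled to the 75th percentile, this last difference was 0.50 (adjusted p = 0.0642) and the call was lost.

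The whole array shifted with sex on this scale. The median of all tested probes was higher in females by 0.20 in control Pxr+/+, 0.12 in control Pxr-/-, 0.03 in ATB Pxr+/+ and 0.18 in ATB Pxr-/- mice, and quantile normalization brought these medians to between -0.02 and -0.01. Less that shift, the differences of Lbp were 0.89, 0.78, 0.93 and 0.62 in the same order. Within the 3 wash batches, the difference in control Pxr+/+ mice was 1.06, 1.32 and 0.70, and in ATB Pxr-/- mice it was 0.46, 0.89 and 1.60. Batch 3 held 1 mouse of each group, so 0.70 and 1.60 each compare 1 female with 1 male. The 4 female group means of Lbp lay between 11.85 and 11.97 and the 4 male means between 10.88 and 11.06, so groups of the same sex differed by less than the largest SD within a group (0.49). Neither ATB nor PXR deletion gave a called change of Lbp in either sex, with differences of -0.11 to 0.12. Of the 8 tested hepatocyte markers, limma called 0 in control Pxr+/+ mice (1 had an unadjusted p under 0.05), and their median difference was 0.08, where that of all genes was 0.20. It called 0 in ATB Pxr+/+ mice (1 had an unadjusted p under 0.05). In control and in ATB Pxr-/- mice 1 was called higher in females (15.7% and 27.4% of all genes).

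**Figure D2:**
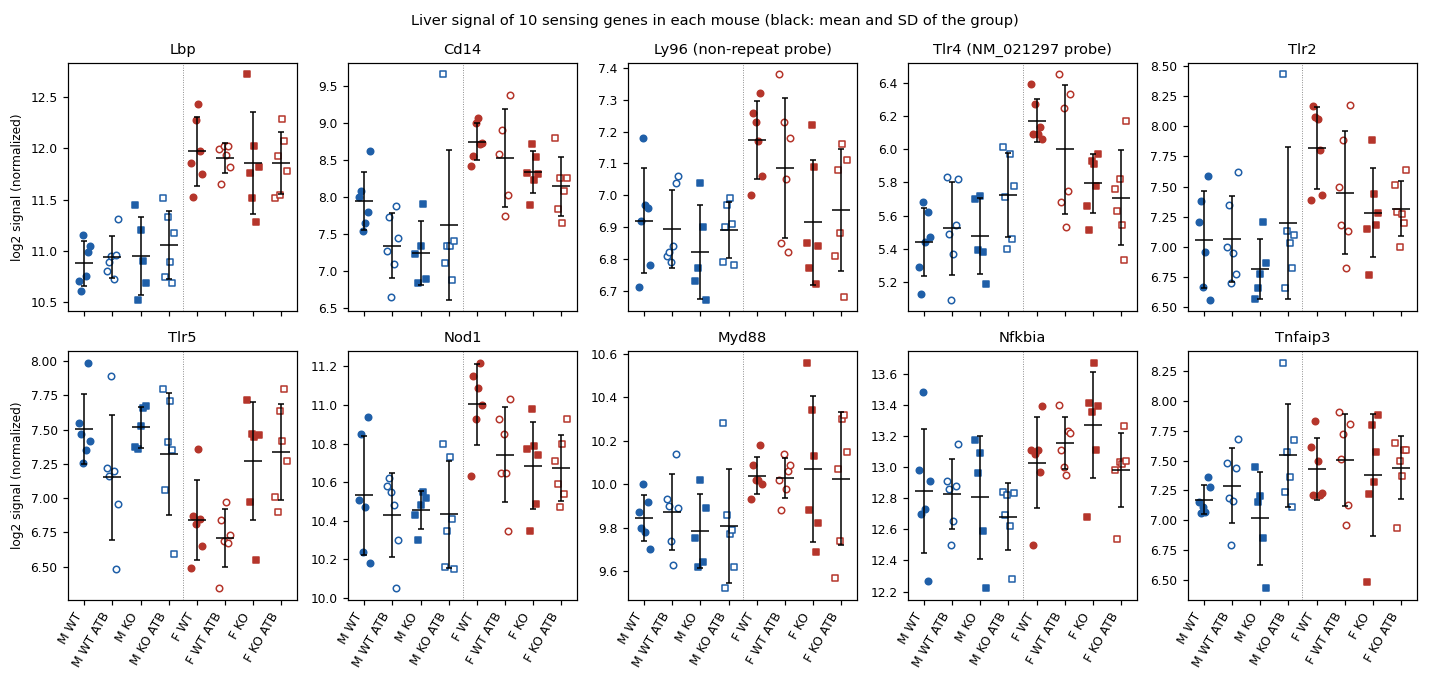
Normalized log2 signal of each of the 10 genes (y axis) in every mouse by group (x axis), with males in blue, females in red, Pxr+/+ as circles, Pxr-/- (KO) as squares and ATB as open symbols. Black bars are the mean and SD of 6 mice, or 5 for male Pxr-/- controls and, for Cd14, for ATB Pxr+/+ females. Lbp has female means of 11.85 to 11.97 and male means of 10.88 to 11.06. Its female and male values overlap in control Pxr-/- mice and meet at 11.52 in ATB Pxr-/- mice. Female means also lie above male means for Nfkbia (12.98 to 13.27 against 12.68 to 12.85) and Myd88 (10.02 to 10.07 against 9.78 to 9.87). For these genes, females and males overlap in each matched pair of groups.

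Cd14, the co-receptor that binds LPS from LBP, was called higher in females in 3 of the 4 comparisons. On the brighter probe, control Pxr+/+ females had values of 8.42, 8.73 and 9.07 (lowest, median and highest) and males of 7.55, 7.91 and 8.63. The groups overlapped, with 4 of 6 females above all males. The difference was 0.80 ± 0.30 (adjusted p = 0.0344), and 0.81 ± 0.28 on the other probe (adjusted p = 0.0211). Neither probe was called with quantile normalization (0.54, adjusted p = 0.239 on the brighter probe) or in the authors' processed values (0.68, adjusted p = 0.105). Without male replicate 3 it was 0.72 (adjusted p = 0.0753), and the brighter probe also lost its call without male replicate 4 or 5 or female replicate 3, 4 or 5 (adjusted p of 0.0529 to 0.0727). With any of these mice left out, the gene was still called through the other probe.

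In ATB Pxr+/+ mice, the 5 female values of Cd14 were 7.75, 8.03, 8.59, 8.91 and 9.38, since the fit dropped the spot of 1 female as non-uniform, and the male values were 6.66, 7.36 and 7.88. On this probe 4 of 5 females lay above all males, and on the other probe all 6 did. The difference was 1.18 ± 0.31 (adjusted p = 0.00715), and 1.23 ± 0.28 on the other probe (adjusted p = 0.00158). Without female replicate 6, the highest of the group, the brighter probe gave 0.94 (adjusted p = 0.0555). In control Pxr-/- mice, females had values of 7.90, 8.32 and 8.72 and the 5 males of 6.85, 6.90, 7.23, 7.35 and 7.91. The difference was 1.09 ± 0.31 (adjusted p = 0.0138), and without male replicate 6 it was 0.99 (adjusted p = 0.0517).

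In ATB Pxr-/- mice 1 male decided the result for Cd14. The 6 male values were 6.89, 7.11, 7.34, 7.35, 7.41 and 9.66, and the last, replicate 1, was the highest Cd14 value of all mice. The female values were 7.65, 8.17 and 8.80. With all mice the difference was 0.52 ± 0.30 (adjusted p = 0.178), and without that male it was 0.94 (adjusted p = 0.00292). The same male had a mean level of 11.19 over the 15 macrophage markers, against 9.11 to 9.97 in the other 5 males of its group, and its mean over 8 hepatocyte markers (16.48) was the lowest of the 47 mice. It also had the highest mean of the 5 B cell markers (7.23 in that male).

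In males, Cd14 differed by treatment and by genotype at an unadjusted p under 0.05, and none of these differences passed correction. With ATB, Pxr+/+ males had values of 6.66, 7.36 and 7.88 against 7.55, 7.91 and 8.63 in controls, and 4 of 6 treated males lay below all controls. On the log2 scale the difference was -0.60 ± 0.30 (adjusted p = 0.272), and -0.67 ± 0.28 on the other probe (adjusted p = 0.196). In Pxr-/- males ATB gave 0.38 ± 0.31 (adjusted p = 0.87), which was -0.03 without replicate 1. Control Pxr-/- males differed from control Pxr+/+ males by -0.71 ± 0.31 (adjusted p = 0.997), and by -0.85 on the other probe (limma adjusted p = 0.677). The difference between the ATB effects of the 2 genotypes in males was 0.98 ± 0.43 (adjusted p = 0.842), and 0.58 without replicate 1 (adjusted p = 0.846). On the other probe it was 1.14, and 0.76 without replicate 1 (limma adjusted p = 0.846).

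Tlr4, the LPS receptor, had its highest mean in control Pxr+/+ females on both probes. On the probe in NM_021297, these females had values of 6.06, 6.11 and 6.39 and control Pxr+/+ males of 5.13, 5.45 and 5.68. All 6 females lay above all males, at unscaled signals of 60 to 84 against 35 to 51.5. The difference was 0.73 ± 0.15 (adjusted p = 0.000213). At signals this close to the background of 15 to 21, which was not subtracted, a log2 difference understates the change in the target. On the downstream probe, the difference was 0.26 ± 0.09 (adjusted p = 0.0204), below the fold of 1.2 required for a call, and with quantile normalization it was -0.01.

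The Tlr4 difference between the sexes was called in ATB Pxr+/+ mice as well (0.47 ± 0.15, adjusted p = 0.0272), with 3 of 6 females above all males. Leaving out female replicate 1, 3 or 6 or male replicate 3 or 4 raised the adjusted p to between 0.0656 and 0.108, and with only the 2 groups in the fit it was 0.072. In Pxr-/- mice the same probe gave 0.32 ± 0.15 in controls (adjusted p = 0.16) and -0.01 ± 0.15 with ATB (adjusted p = 0.96). The genotype-by-sex contrast under ATB was -0.48 ± 0.21 (adjusted p = 0.484).

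Tlr2, the lipoprotein receptor, was called in 1 comparison. Control Pxr+/+ females had values of 7.39, 7.93 and 8.17 and males of 6.56, 7.08 and 7.59. The groups overlapped, with 4 of 6 females above all males. The difference was 0.76 ± 0.23 (adjusted p = 0.0101), and it was 0.50 with quantile normalization (adjusted p = 0.109). In the other 3 comparisons of the sexes it ranged from 0.12 to 0.47, with adjusted p of 0.184 or more.

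Nod1, the cytosolic peptidoglycan sensor, showed a smaller difference between the sexes. Control Pxr+/+ females had values of 10.63, 11.05 and 11.22 and males of 10.18, 10.49 and 10.94. The difference was 0.47 ± 0.13 (adjusted p = 0.00623), with 4 of 6 females above all males. With quantile normalization it was 0.24 (adjusted p = 0.126). In the other comparisons of the sexes it was 0.23 to 0.31 and was not called.

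Tlr5, the flagellin receptor, was the 1 gene of the 10 called lower in females, in a comparison where 2.51% of all genes were called lower. Control Pxr+/+ females had values of 6.49, 6.83 and 7.36 and males of 7.26, 7.45 and 7.99. The groups overlapped through 1 female, and the other 5 lay below all males. The difference was -0.67 ± 0.20 (adjusted p = 0.00819), and -0.48 ± 0.16 on the other probe (adjusted p = 0.022). The difference was -0.86 less the median of all probes and -0.92 with quantile normalization (adjusted p = 0.000389). Leaving out any 1 mouse kept the call. In ATB Pxr+/+ mice it was -0.45 ± 0.20 and -0.46 ± 0.16 on the 2 probes (adjusted p of 0.144 and 0.0608), and the second probe was called with quantile normalization (-0.53, adjusted p = 0.016). In Pxr-/- mice the difference was -0.25 ± 0.20 in controls and 0.02 ± 0.20 with ATB.

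The Pxr-/- females had Tlr5 levels nearer those of males. Under ATB, Pxr-/- females had values of 6.90, 7.34 and 7.80 and Pxr+/+ females of 6.34, 6.71 and 6.97, with 5 of 6 Pxr-/- values above all Pxr+/+ values. On the other probe, the lowest Pxr-/- female lay just above the highest Pxr+/+ female. Both values round to 6.35, so the groups were barely apart. The differences were 0.63 ± 0.20 (limma adjusted p = 0.452) and 0.62 ± 0.16 (limma adjusted p = 0.185), so neither passed correction. The genotype-by-sex contrast under ATB on the second probe was 0.47 ± 0.23 (adjusted p = 0.485).

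Ly96, Myd88, Nfkbia and Tnfaip3 were not called in any comparison. Ly96 on A_66_P137323 had group means between 6.82 and 7.17, a span of 0.35. Its value was 0.26 ± 0.10 for control Pxr+/+ females against males (adjusted p = 0.0416), which was under the fold of 1.2. Myd88, the shared adaptor, spanned 0.29 among its group means, the least of all members on their brightest probes, from 9.78 to 10.07. Its female means (10.02 to 10.07) all lay above its male means (9.78 to 9.87), and the 4 differences of 0.16 to 0.29 had adjusted p of 0.131 or more.

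Nfkbia, the NF-κB inhibitor that NF-κB induces, had values of 12.68, 13.37 and 13.67 in control Pxr-/- females and of 12.22 to 13.17 in the 5 control Pxr-/- males. The groups overlapped, and the difference of 0.47 ± 0.17 did not pass (adjusted p = 0.0635). It was called when female replicate 1 or male replicate 2 or 4 was left out. Tnfaip3, which encodes A20, reached its highest mean in ATB Pxr-/- males, with values of 7.11, 7.24, 7.36, 7.57, 7.67 and 8.32 against 6.43, 6.85, 7.15, 7.20 and 7.45 in their controls. The difference was 0.53 ± 0.21 (limma adjusted p = 0.664), and 0.38 without replicate 1, the male described above.

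NF-κB binds a 10-base consensus, which was searched on both strands from 250 bases before to 50 bases after the start of genes in RefSeq (GRCm38.p6). A match was found in 2779 of 32851 promoters (8.46%). Promoters of 6 of the 10 genes were searched, as 8 promoters, of which 3 had a match. Those of the other 4 genes (Tlr4, Ly96, Lbp and Cd14) were not searched, so nothing is said of them here. These were the promoters of Nfkbia and Tlr2 and 1 of the 2 promoters of Tnfaip3. The windows of Nfkbia (chr12:55492648-55492696, minus strand) and Tlr2 (chr3:83841751-83841801, minus strand) are printed because these genes stand for the inhibitors and the receptors, with matches in capitals. Tlr2 had 5 matches with each strand counted separately, so they are not 5 separate sites. The window shows 3 that overlap each other, of which 2 are the same 10 bases read on both strands. The other 2, nearer the gene start, also start at the same base as each other and are not shown.
Nfkbia: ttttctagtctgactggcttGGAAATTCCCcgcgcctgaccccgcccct
Tlr2: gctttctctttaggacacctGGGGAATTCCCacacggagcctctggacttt
A match is a stretch of letters and says nothing of binding in these livers.

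For microbiota depletion, 0 of the 10 genes were called in any group by limma. The share of all genes called was 1.34% in Pxr+/+ males, 0.11% in Pxr-/- males, 0.0183% in Pxr+/+ females and 0.0411% in Pxr-/- females. At an unadjusted p under 0.05 there was 1 of the 10 in Pxr+/+ males (Cd14), 1 in Pxr-/- males (Tnfaip3), 0 in Pxr+/+ females and 0 in Pxr-/- females. The share of all genes at that unadjusted level was not counted in any comparison. Such counts, here and below, thus have no background to be read against. No brightest probe of the 10 had groups without overlap in these 4 comparisons, where 0.343% to 3.9% of all genes did. The 95% intervals of the brightest probes bound what could be missed. For Lbp they ran from -0.43 to 0.49 over the 4 ATB comparisons, for Myd88 from -0.30 to 0.28, for Tlr2 from -0.83 to 0.87, and for Cd14, the widest, from -1.2 to 1.01. The number of mice limits this precision, and changes within these intervals could not be told from none.

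For PXR deletion, 0 of the 10 genes were called as well. The share of all genes called was 0.192% in control males, 4.03% in control females, 1.17% in ATB males and 0.229% in ATB females. At an unadjusted p under 0.05 there were 1, 6, 0 and 1 of the 10. Whether 6 of 10 is more than the share of all genes at that level is not known, since that share was not counted. No brightest probe of the 10 had groups without overlap, where 0.836%, 1.68%, 3.44% and 0.462% of all genes did in the same order. The 6 in control females were Tlr4 (-0.38 ± 0.15 in NM_021297), Tlr2 (-0.54 ± 0.23), Nod1 (-0.32 ± 0.13), Ly96 (-0.26 ± 0.10 on A_66_P137323), Cd14 (-0.59 ± 0.28 on its second probe) and Tlr5 (0.43 ± 0.20), with limma adjusted p of 0.127 to 0.212. On the NM_021297 probe of Tlr4, Pxr-/- females had values of 5.51, 5.85 and 5.97, and all lay below the lowest Pxr+/+ female (6.06). The median of all probes in this comparison was -0.11. Leaving out control Pxr-/- female replicate 3 called 1 gene, Ly96.

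The 6 contrasts that compare effects between sexes or genotypes called 0 of the 10 genes. Of all genes, 0.0183% and 0% were called for antibiotic by genotype in males and females, 0.0457% and 0.00457% for antibiotic by sex in Pxr+/+ and Pxr-/- mice, and 0.0229% and 0.0549% for genotype by sex in control and ATB mice. At an unadjusted p under 0.05 there were 1 gene for antibiotic by genotype in males (Cd14), 2 in females, 0 and 1 for antibiotic by sex in Pxr+/+ and Pxr-/- mice, and 0 and 2 for genotype by sex in control and ATB mice. A sex difference called in Pxr+/+ and not in Pxr-/- mice is thus not shown to differ between the genotypes.

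**Figure D3:**
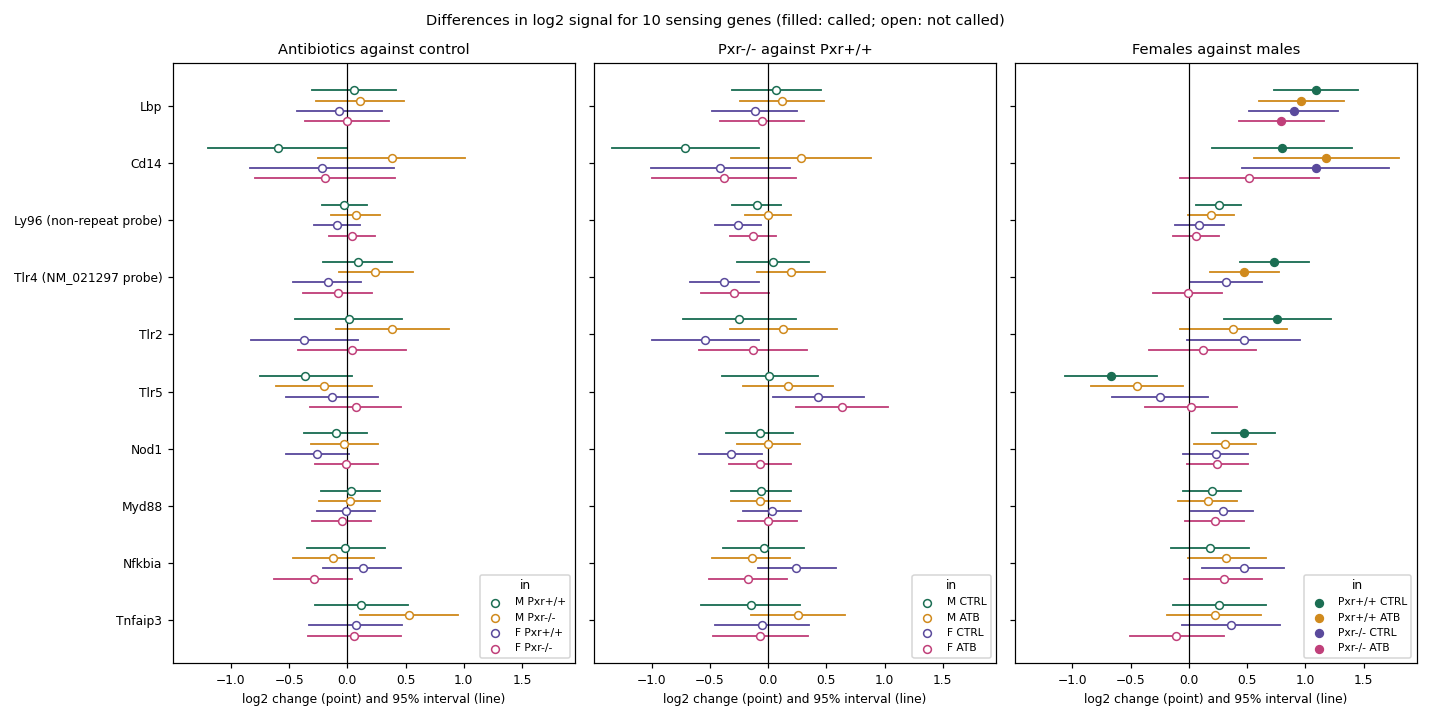
Difference in log2 signal (x axis, points) with its 95% interval (lines) for the 10 genes in the 12 comparisons, by antibiotics, by genotype and by sex. Filled points passed the adjusted p of 0.05 and the fold of 1.2. All filled points lie in the panel of females against males, where Lbp is filled in all 4 comparisons, from 0.79 to 1.09.

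Markers of macrophages and of other non-parenchymal cells also differed between the sexes. In control Pxr+/+ mice, 14 of the 15 macrophage markers were called higher in females on at least 1 probe. Of these 14, 1 was also called lower on another probe. Counts below are by any probe as well, so a marker can count in both directions. The median difference of the 15 was 1.06, where that of all genes was 0.20. The mean of the list ran from 10.71 to 11.54 in control Pxr+/+ females and from 9.77 to 10.20 in males. In the same comparison, the markers called higher were 3 of 3 for monocytes (median 0.95), 5 of 7 for T and NK cells (0.99), 7 of 8 for stellate cells and fibroblasts (0.72), 6 of 8 for sinusoidal endothelial cells (0.54), 2 of 6 for neutrophils (0.82), 1 of 5 for B cells (0.40) and 0 of 5 for cholangiocytes (0.34, 1 with an unadjusted p under 0.05 in limma). Of all genes, 34% were called higher. Of the 15 macrophage markers, 7 were called higher and 1 lower in control Pxr-/- mice (15.7% and 2.88% of all genes), 8 and 1 in ATB Pxr+/+ mice (10.1% and 4.17%), and 0 and 2 in ATB Pxr-/- mice (27.4% and 2.87%). In control females, 9 of the 15 were called lower in Pxr-/- mice (median -0.85), as were 4 of 8 sinusoidal endothelial markers (-0.57), where 3.81% of all genes were. With ATB, limma called 0 macrophage markers in any group, with 2, 7, 11 and 0 at an unadjusted p under 0.05 in Pxr+/+ males, Pxr-/- males, Pxr+/+ females and Pxr-/- females. The share of all genes at that level was not counted. The medians were -0.21 and 0.54 in Pxr+/+ and Pxr-/- males and -0.57 and -0.12 in Pxr+/+ and Pxr-/- females. The part of these cell types in the differences of Cd14, Tlr2 and Tlr4 was not tested.

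Over the mice, with group means subtracted, the level of the macrophage list followed Tlr2 (r = 0.81) and Cd14 (r = 0.81) most, then Tnfaip3 (r = 0.64). It followed Lbp (r = 0.33) and Tlr5 (r = 0.03) less. Other lists were followed too. For the B cell list r was 0.68 with Tlr2, 0.51 with Cd14 and 0.72 with Nod1, whose r with the macrophage list was 0.43. Tnfaip3 had r = 0.63 with the T and NK cell list and 0.57 with the sinusoidal endothelial list. All these values include ATB Pxr-/- male replicate 1, and r without it was not computed. These values describe 47 mice (46 for Cd14) that share slides and wash batches. The genes most like Cd14 were Dok3 (r = 0.90), Aoah (0.90) and Cd300e (0.89), all known from myeloid cells, and Aoah encodes an enzyme that inactivates LPS. Those most like Tlr2 were Lrrc25 (0.90), Kcnj10 (0.90) and Evl (0.89). Between members, Tlr2 and Cd14 were most alike (r = 0.70), followed by Tlr2 and Nod1 (0.69).

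**Figure D4:**
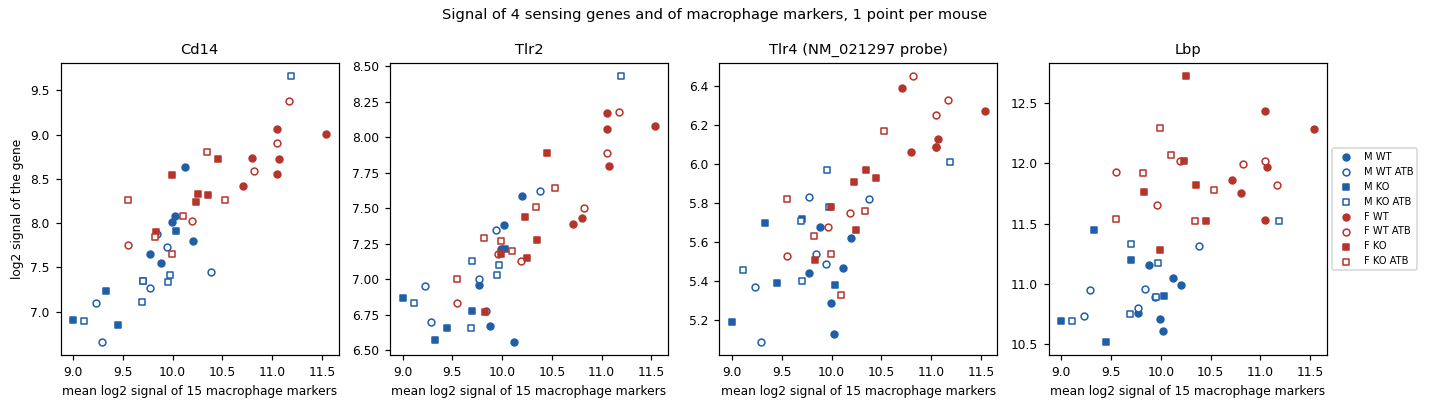
Mean log2 signal of 15 macrophage markers (x axis) against the log2 signal of Cd14, Tlr2, Tlr4 and Lbp (y axis), 1 point per mouse (symbols as for the plot of levels by group). Tlr4 is shown by its NM_021297 probe. Higher Cd14 and Tlr2 go with a higher marker level (r = 0.81 each within groups).

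The genes most like Lbp were Hp (r = 0.84), Saa4 (0.80) and Fgl1 (0.75), which encode haptoglobin, a serum amyloid A protein and a fibrinogen-like protein secreted by the liver. Those most like Nod1 were Rab3il1 (0.86), Nfkbie, an NF-κB inhibitor (0.85), and Csf1, the growth factor of macrophages (0.84). For Myd88 they were Osbpl9 (0.83), Skap2 (0.81) and LOC552877 (0.80), for Tlr5 Exoc2 (0.78), Rab11fip4 (0.77) and Tcf20 (0.74), for Nfkbia Tmem2 (0.81), Itprip (0.80) and BC089523 (0.79), and for Tnfaip3 Tmsb4x (0.77), Plekha2 (0.76) and Msn (0.76). The downstream probe of Tlr4 was most like Lst1 (0.78), Cd209f (0.76, and 0.53 with quantile normalization) and 2900076A13Rik (0.73).

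The wider pathway was read from 90 other genes, in lists of receptors, adaptors and kinases, transcription factors, inhibitors and outputs, of which 80 were tested. With ATB, limma called 1 of the 80 in Pxr+/+ males and 0 in each of the other groups, with 17 of 80 at an unadjusted p under 0.05 in Pxr+/+ males, 10 in Pxr-/- males, 15 in Pxr+/+ females and 16 in Pxr-/- females. The share of all genes at that unadjusted level was not counted. Of all genes, 1.34% were called in Pxr+/+ males, so 1 of 80 is near the background. The called gene was Irf5, an inflammatory transcription factor, higher in Pxr+/+ males by 1.06 ± 0.20 on A_55_P2739057, not its brightest probe (limma adjusted p = 0.00347). With PXR deletion, 11 of 80 were called lower in control females, where 3.81% of all genes were. They included the cytokine genes Il1b (-1.36 ± 0.36 on A_66_P114500, not its brightest probe, adjusted p = 0.0307) and Ccl2 (-1.18 ± 0.33, 0.0394), Irf5 (-1.02 ± 0.20, 0.00483), the receptor gene Tlr8 (-0.52 ± 0.14, 0.0304), Pglyrp2, which encodes a peptidoglycan-cleaving enzyme (-0.52 ± 0.11, 0.00800), and the inhibitor Socs1 (-0.51 ± 0.14, 0.0337). Pglyrp2 was also the 1 gene of the 80 called in ATB males, at -0.45 ± 0.11 (adjusted p = 0.0322), where 1.17% of all genes were called.

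Between the sexes, 42 of the 80 pathway genes were called higher and 1 lower in control Pxr+/+ females, where 34% of all genes were called higher. By list these were 15 of 18 receptors, 8 of 21 adaptors and kinases, 4 of 10 transcription factors, 7 of 14 inhibitors and 8 of 17 outputs. The median difference of the 80 was 0.37, where that of all genes was 0.20. Among receptors the largest were Ly86 (1.11 ± 0.23, limma adjusted p = 0.000405) and Tlr8 (0.98 ± 0.14, 6.57e-07), and among outputs Lcn2 (2.34 ± 0.70, 0.00956) and Cxcl10 (1.62 ± 0.23, 8.7e-07). The counts were 20 higher and 1 lower in control Pxr-/- mice, 11 and 2 in ATB Pxr+/+ mice and 13 and 3 in ATB Pxr-/- mice, where 15.7%, 10.1% and 27.4% of all genes were called higher and 2.88%, 4.17% and 2.87% lower. The share of pathway genes called higher was thus below that of all genes in ATB Pxr-/- mice. Tnf, whose product is a cytokine released on TLR4 signaling, was called in the other direction. On probe A_55_P2740937 it was lower in females, at -2.08 ± 0.18 in ATB Pxr+/+ mice (limma adjusted p = 5.34e-12). The difference was -1.57 ± 0.19 in control Pxr-/- mice (4.71e-08) and -1.72 ± 0.18 in ATB Pxr-/- mice (9.87e-10). What this probe measures was not examined as it was for Ly96 and Tlr4. In control Pxr+/+ mice Tnf was not among the 3 outputs with the largest change, so its value is not given. The 1 output called lower there is not named for the same reason.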

How the data were processed

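Liver RNA of 47 mice was hybridized to one-color Agilent arrays. The authors scanned the arrays and extracted spot values with Agilent Feature Extraction 10.10.1.1, and the deposited files hold the median intensity of each spot, which is linear and not background-subtracted. A deposited table of log2 values, normalized by the authors, was used only as an alternative. A probe was kept if at least 5 arrays of 1 group had it well above background, and 422 non-uniform spot values were left out. After log2, the wash batch (3 batches, each with several groups) was removed with group means kept. Arrays were normalized with CrossNorm (300 stacks of 1 array per group, seed 1), following the study's methods. The 8-group model, with wash batch as a covariate, was fitted in limma 3.58.1 (R 4.3.3) on all 32979 probes, with Benjamini-Hochberg adjustment over all of them. A probe was called at an adjusted p of at most 0.05 and a fold above 1.2, and a gene when at least 1 of its probes was called. Unless a probe is named, values are from the gene's brightest tested probe. Levels of different probes are not comparable. Figures used matplotlib 3.10.9.

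The genes, the lists and the tests were chosen with earlier results of these data known. Named genes were the 10 members, at most 3 called genes per pathway list and comparison with the largest change, and the 3 genes most correlated with each member. Marker lists covered 9 cell types. The alternatives were quantile normalization, the processed signal less its 75th percentile, normexp (offset 50) with quantile normalization, the authors' values, 2 other filters, no wash batch, slide in its place, a replicate block, only the groups compared, only the brightest probe and leaving out each mouse. On simulated data for the sex comparison in control Pxr+/+ mice, 94% of probes changed by 1 on the log2 scale were recovered and 59% of those changed by 0.5. The simulation changed 100 probes by each size, with independent normal noise and no shift of the whole array. In the measured comparison 34% of all genes were called higher, so these rates need not hold there. No 2 arrays of a group were identical (highest correlation 0.9962). Male Pxr-/- control replicate 1 was not analysed here.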

Additional observations from a re-analysis of the deposited data

Results flagged for a closer look

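In ATB Pxr-/- males, replicate 1 stood apart from the other 5 mice on 4 probes of the set, by a test of the gap to the nearest value against the range of the group. Its Cd14 log2 signal was 9.38 on A_51_P172853, where the others lay between 6.90 and 7.27, and 9.66 on A_55_P2804638, where they lay between 6.89 and 7.41. Its Tlr2 signal was 8.43 (others 6.66 to 7.13) and its signal on the downstream Tlr4 probe was 8.16 (others 7.44 to 7.61). These were the 4 values that stood apart among 112 sets of 1 probe in 1 group. Chance alone gives about 1 in 20, or 5.6 of 112, so the total is not above chance. All 4 fell in the same mouse, and the sets are not independent. The total therefore cannot tell whether this mouse stands apart by chance. Both Cd14 probes are among the 4. In the same mouse the mean of the 15 macrophage markers was 11.19 (others 9.11 to 9.97), the second highest of 47, and that of the 5 B cell markers was the highest of 47. Monocyte markers (6.85), neutrophil markers (8.80), T and NK cell markers (6.70), endothelial markers (10.56), stellate cell markers (9.49) and cholangiocyte markers (6.57) ranked 31, 5, 27, 41, 42 and 45 of 47. The part of these cells in the Cd14, Tlr2 and Tlr4 values was not tested.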

How the results depend on the processing

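The number of the 10 genes called between the sexes in control Pxr+/+ mice was 6, and 3 with quantile normalization, with the processed signal less its 75th percentile and with normexp and quantile normalization. In each of these Lbp, Tlr4 and Tlr5 were called. In ATB Pxr-/- mice the count was 1, and 0 with the processed signal. Leaving out each mouse in turn gave 6 to 7 genes in control Pxr+/+, 2 to 3 in control Pxr-/-, 2 to 4 in ATB Pxr+/+ and 1 to 2 in ATB Pxr-/- mice for the sexes, and 0 to 1 for genotype in control females. The 2 in ATB Pxr-/- mice came without female replicate 1 (Myd88 added) or male replicate 1 (Cd14 added). For the other comparisons and contrasts the count was 0 throughout. Of 44 counts for the sexes under the remaining alternatives, 40 lay within 1.5 times the main count, and the other 154 counts were 0 against 0 and say nothing of stability. Of 132 values of called genes under these alternatives, 16 lost their call, as did 13 of 142 with a mouse left out, and 0 reversed. With the replicate number as a block, the counts were 6, 2, 3 and 1 for the sexes, as without it, and 0 elsewhere. The numbers do not pair the mice: of 69 same-numbered pairs, 14 had correlated deviations over 0.1 (range -0.34 to 0.55). Signals of the NM_021297 Tlr4 probe near background, cages shared within groups, and 5 or 6 mice per group limit precision.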
